A study of Homo sapiens with 20 samples.

Results

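The MYC and PVT1 locus was taken as the 3 Mb of chromosome 8 from 1 Mb before the annotated start of MYC to 2 Mb after it (chr8:126735434-129735433, hg38), and every cohesin peak whose centre lay there was a member. MYC (ENSG00000136997.22, chr8:127735434-127742951, plus strand) is a protein-coding gene of 7.518 kb, and PVT1 (ENSG00000249859.14, chr8:127794526-128187101, plus strand) is a long non-coding RNA gene of 393 kb that begins 51.6 kb past the end of MYC. In CHM13 cells the locus held 121 of 73881 RAD21 peaks, 48 of 38284 SA1 peaks and 57 of 44503 SA2 peaks. In RPE-1 cells it held 13 of 14998 RAD21 peaks, 8 of 10724 SA1 peaks and 5 of 6416 SA2 peaks. Overlapping peaks of the 6 lists formed 121 sites, each of which held a RAD21 peak of CHM13 cells.

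The study mapped cohesin by chromatin immunoprecipitation and sequencing (ChIP-seq) in 2 human lines that hTERT immortalised, and its question concerned centromeres. CHM13 comes from a hydatidiform mole, and RPE-1 from the pigment epithelium of the retina. Its 20 libraries covered the 3 subunits and input chromatin, each in 3 replicates for CHM13 and 2 for RPE-1, and the labels name no treatment. The RAD21 antibody, the shearing of chromatin, the number of replicates and the Drosophila chromatin added as an internal control (CHM13 only) differed between the lines. By the authors' read counts, most CHM13 immunoprecipitates were also sequenced more deeply than those of RPE-1. The SA1 and SA2 antibodies were shared. A difference between the lines cannot be told apart from these differences in method and depth. Each list pools the replicates of 1 subunit in 1 line and gives positions but no peak height, so no spread between replicates could be given, and cell identity could not be checked against marker genes.

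Cohesin is a ring-shaped complex that holds sister chromatids together and forms chromatin loops. RAD21 closes the ring, and each complex carries either SA1 or SA2, accessory subunits that join it to chromatin. Cohesin often accumulates where the DNA-binding protein CTCF is bound. MYC encodes a transcription factor that promotes growth and division. It lies in a region poor in protein-coding genes, where distant enhancers and non-coding genes such as PVT1, PCAT1, CASC8 and CCDC26 are known. PVT1 hosts several microRNA genes, among them MIR1204 and MIR1207. Of the 36 genes in GENCODE 44 that overlapped the window, 2 were protein-coding, MYC and POU5F1B (a retrogene related to the pluripotency factor OCT4), and 18 were long non-coding RNA genes.

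**Figure D1:**
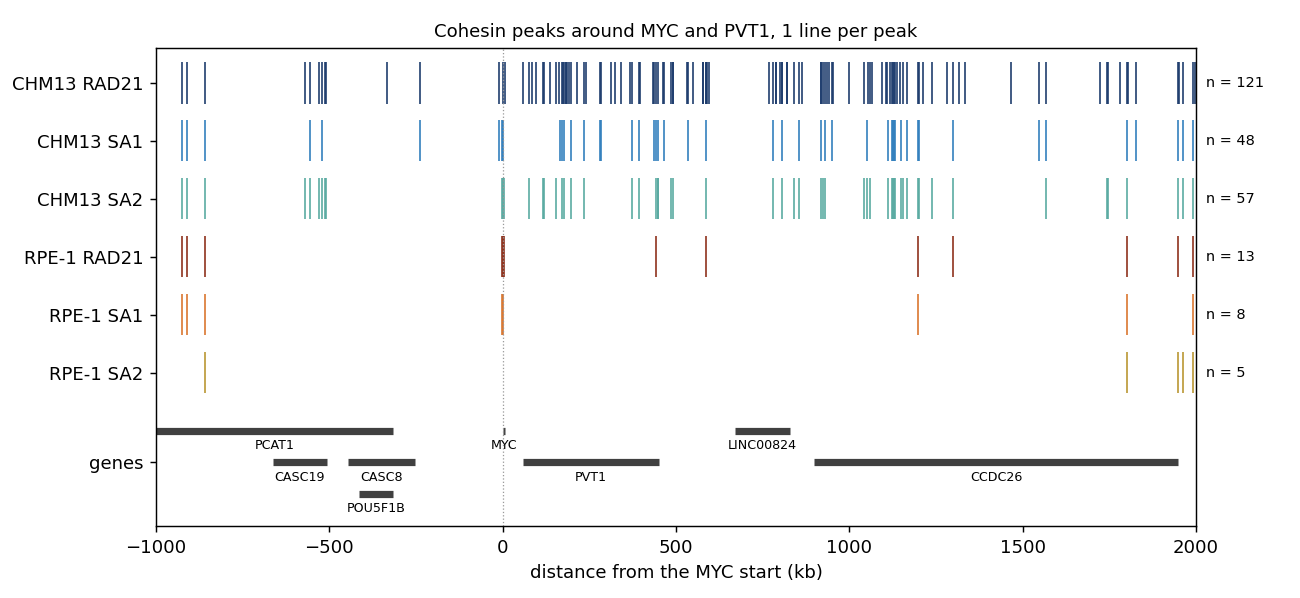
Position of every peak in the 6 lists (1 vertical line per peak at its centre) against distance from the MYC start in kb, with 8 of the genes of the window drawn below and the number of peaks at the right. The 121 RAD21 peaks of CHM13 cells were dense in PVT1 and in the left part of CCDC26 as drawn, and sparse before MYC, and the 13 RAD21 peaks of RPE-1 cells lay in a few places, 3 of them at MYC.

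At MYC, RAD21 of CHM13 cells formed 1 broad peak that ran from before the gene over its first 2 exons (chr8:127733737-127740010, 6274 bp). It began 1697 bp before the annotated start and ended 4576 bp after it. Of all RAD21 peaks of CHM13 cells it was the third widest on chromosome 8 (3602 peaks) and ranked 28 of 73881 over the genome. The SA1 list of CHM13 cells gave a pair of peaks over the same bases. The narrower lay before the start (chr8:127733746-127734557, 812 bp), and the wider covered the start and exons 1 and 2 (chr8:127734857-127739436, 4580 bp). The latter was the widest of 1723 SA1 peaks on chromosome 8 and ranked 14 of 38284 overall.

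SA2 in CHM13 cells marked 3 separate positions within the broad RAD21 peak. They were a peak of 416 bp before the start (chr8:127733924-127734339), a peak of 357 bp at exon 1 (chr8:127736131-127736487) and a peak of 1252 bp reaching over exon 2 (chr8:127737761-127739012). Their centres lay at −1.3, 0.9 and 3.0 kb from the MYC start. The exon numbers are those of the canonical transcript, whose exon 1 begins 0.797 kb past the gene's outermost start. None of the 3 SA2 peaks covered the outermost annotated start itself.

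On the rest of chromosome 8, RAD21 peaks had a median width of 435 bp in RPE-1 cells and 733 bp in CHM13 cells. At MYC, RPE-1 cells had RAD21 peaks at 3 positions similar to those of CHM13 SA2. They were 430 bp wide before the start (chr8:127733915-127734344), 572 bp wide at exon 1 (chr8:127735971-127736542) and 512 bp wide at the edge of exon 2 (chr8:127737742-127738253), with centres at −1.3, 0.8 and 2.6 kb. SA1 of RPE-1 cells marked the first of these places (chr8:127733925-127734346, 422 bp) and exon 1 (chr8:127736126-127736643, 518 bp). The SA2 list of RPE-1 cells had no peak at MYC. The first position, 1.3 kb before the start, thus held a peak in 5 of the 6 lists, within the antisense gene CASC11 that overlaps the beginning of MYC. The start of CASC11, at 3.553 kb in exon 2 of MYC, was covered by a peak of each of the 3 subunits in CHM13 cells, and the nearest RPE-1 RAD21 peak ended within 1 kb of it.

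Annotated MYC transcripts use 14 distinct starts. All 14 lay within the broad RAD21 peak and the wide SA1 peak of CHM13 cells. The RAD21 peaks of RPE-1 cells covered 5 of them, the SA1 peaks of RPE-1 cells 2 and the SA2 peaks of CHM13 cells 2. The start of the canonical transcript was among those covered in each of these 5 lists, by the peak at exon 1 where the peaks were separate.

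**Figure D2:**
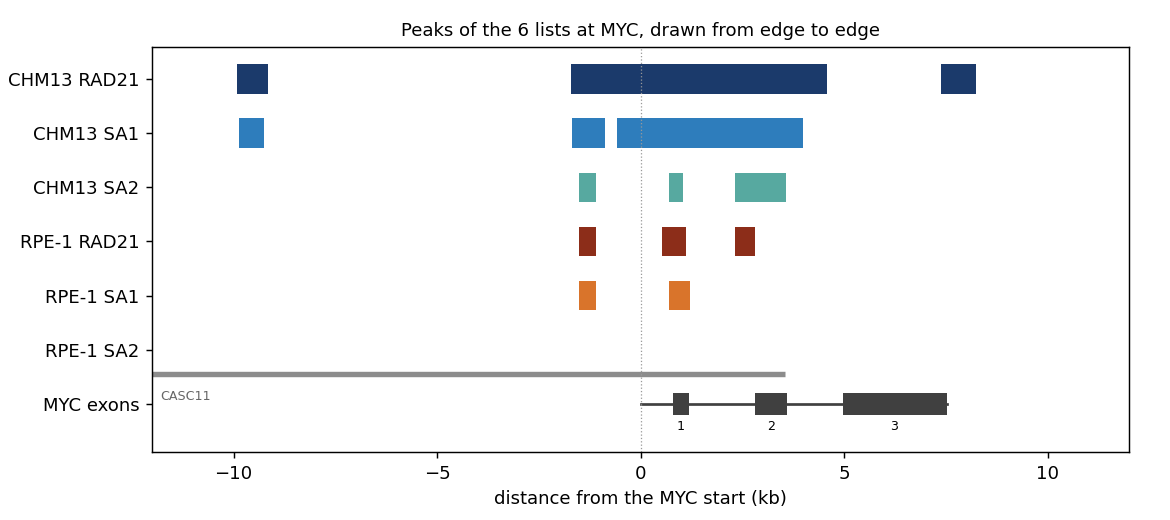
Peaks of the 6 lists within 12 kb of the MYC start, drawn from edge to edge on a scale of distance in kb, with the 3 exons of the canonical MYC transcript and the antisense gene CASC11 below. RAD21 of CHM13 cells formed 1 peak of 6274 bp where RAD21 of RPE-1 cells formed 3 peaks of 430, 572 and 512 bp, and the RPE-1 SA2 row is empty.

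The flanks of MYC held single sites. At −9.5 kb, in an intron of CASC11, RAD21 and SA1 of CHM13 cells shared a site of 761 bp (chr8:127725514-127726274) with no SA2 peak and none of RPE-1 cells. At the 3′ end of MYC, reaching from exon 3 into the DNA beyond it, lay a RAD21 peak of CHM13 cells alone (chr8:127742817-127743686, 870 bp). It was the one peak of any list centred between MYC and PVT1. The start of PVT1 was covered by a further RAD21 peak of CHM13 cells alone (chr8:127794184-127795768, 1585 bp), which also ended within 1 kb of the start of MIR1204. It was the widest of the 56 RAD21 peaks in the window that had no SA peak.

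PVT1 was crowded with RAD21 in CHM13 cells. The gene held 33 RAD21 peaks, a density of 84.1 per Mb (95% exact Poisson interval 57.9 to 118). The rest of chromosome 8 outside the window had 24.6 per Mb. Within the window the density in PVT1 was 2.49 times that of the other parts combined (95% conditional exact interval 1.62 to 3.75). Among the 88 long non-coding RNA genes of at least 100 kb on chromosome 8, PVT1 ranked 4 by density of RAD21 peaks, and the median of those genes was 14.2 per Mb. With the long protein-coding genes added it ranked 9 of 265. These intervals, and all that follow, cover counting error only, because peaks of 1 list are not replicates.

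The 33 peaks of PVT1 stood a median of 8.76 kb apart and were 838 bp wide in the median. Of them, 10 touched an annotated PVT1 exon and 23 lay in introns alone. Annotated exons made up 6.48% of the bases of PVT1. Because 1 bp of overlap counts, a peak reaches an exon more often than a single base does. The share for peaks at random places was not computed. SA1 peaks numbered 12 in PVT1 and SA2 peaks 13. The density of SA1 there was 2.21 times that of the other parts (1.05 to 4.35) and that of SA2 1.96 times (0.970 to 3.71), an interval that includes 1. For SA1 the interval also included 1 with peaks of at least 500 bp (0.916 to 4.85) or with PVT1 taken as its first 300 kb (1.54, 0.582 to 3.46), and for SA2 it excluded 1 with peaks of at least 500 bp (2.47, 1.20 to 4.78). Of the 33 RAD21 peaks, 17 overlapped neither SA subunit, 8 overlapped both, 4 overlapped SA1 alone and 4 SA2 alone.

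In RPE-1 cells PVT1 held 1 peak in all. It was a RAD21 peak at 441.4 kb in the last part of the gene, within an intron, where RAD21, SA1 and SA2 of CHM13 cells also met (chr8:128175999-128177750, 1752 bp over all lists). Neither SA list of that line had a peak in PVT1, and a count of 0 over this length allows up to 7.64 peaks per Mb by the limit of 3 counts, or 9.40 by the upper end of the exact Poisson interval. For RAD21 of RPE-1 cells the ratio of PVT1 to the other parts was 0.553, with an interval of 0.0129 to 3.74 that includes both the ratio of CHM13 cells and 1.

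Some small genes inside PVT1 had a peak near their start. The starts of MIR1207 (a microRNA gene) and of LINC02912 lay within 1 kb of RAD21 peaks of CHM13 cells with no SA peak, 582 bp and 614 bp wide. The start of ENSG00000278324 (annotated as a miscellaneous RNA) lay near a site of RAD21 and SA2. The microRNA genes MIR1205, MIR1206 and MIR1208 had no peak of any list within 1 kb of their start. The small nuclear RNA genes and the pseudogene inside PVT1 had none either. The share of all positions in PVT1 that lie within 1 kb of a peak was not computed.

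Past PVT1, RAD21 of CHM13 cells was dense in stretches, up to the middle of CCDC26, a long non-coding RNA gene of more than a megabase. The downstream side, from the end of PVT1 to the end of the window, held 74 RAD21 peaks (47.8 per Mb, 37.5 to 60.0). The upstream side, up to 5 kb before MYC, held 12 (12.1 per Mb, 6.23 to 21.1). The ratio of downstream to upstream density was 3.96 for RAD21 (2.14 to 8.01), 2.48 for SA1 (1.05 to 6.74, from 27 and 7 peaks) and 2.28 for SA2 (1.07 to 5.44, from 32 and 9 peaks). All 3 intervals exclude 1, but that of SA1 did not when only peaks of at least 500 bp were counted (2.57, 0.936 to 8.76). Peak density varies along the chromosome, with 1 to 56 CHM13 RAD21 peaks per Mb in other tiles of 3 Mb. How often neighbouring stretches differ as much as these 2 sides was not computed.

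RPE-1 cells had few peaks on either side. RAD21 had 3 upstream and 6 downstream, a ratio of 1.29 (0.274 to 7.94). SA1 had 3 on each side (ratio 0.643, 0.0861 to 4.80), and SA2 had 1 upstream and 4 downstream (2.57, 0.254 to 127). All 3 intervals include 1 and also the ratio measured in CHM13 cells, so an asymmetry was not detectable at these counts.

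The downstream desert was described in bins of 100 kb. The bin with most RAD21 peaks of CHM13 cells lay in PVT1, from 100 to 200 kb past the MYC start, with 13 peaks, where the median bin of chromosome 8 held 2 and the highest 19. Of 1443 bins of chromosome 8, 7 held 13 or more. A further rise lay within CCDC26, with 12 RAD21, 8 SA1 and 9 SA2 peaks from 1100 to 1200 kb. No RAD21 peak was centred from 600 to 700 kb, and the bins from 1300 to 1700 kb held 2, 1, 2 and 0. Bins with no RAD21 peak numbered 6 of 30 in CHM13 cells and 20 of 30 in RPE-1 cells.

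**Figure D3:**
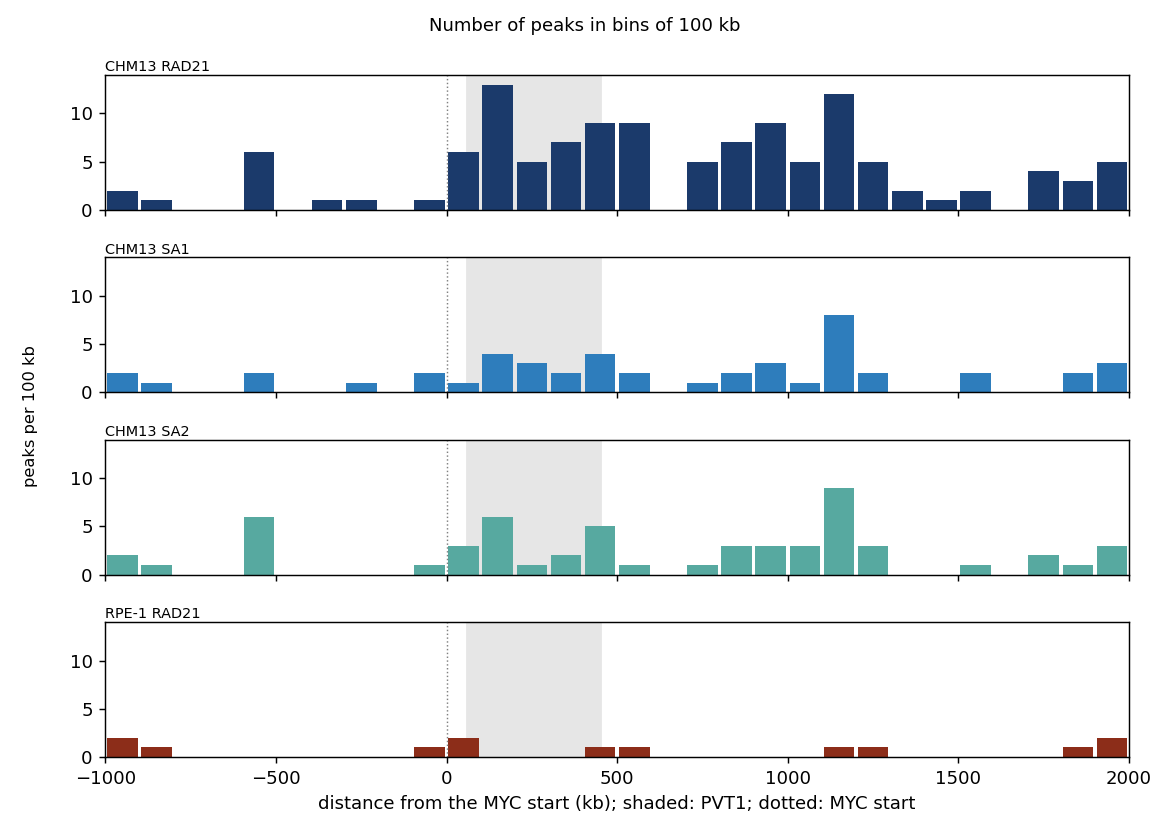
Number of peaks per bin of 100 kb for RAD21, SA1 and SA2 of CHM13 cells and RAD21 of RPE-1 cells against distance from the MYC start in kb, with PVT1 shaded. The highest bins of CHM13 RAD21, with 13 and 12 peaks, lay in PVT1 and in CCDC26, and no bin of RPE-1 RAD21 held more than 2.

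Genes of the downstream side differed in density. LINC00824 held 9 RAD21 peaks of CHM13 cells (56.5 per Mb), all of them in introns, and no peak of RPE-1 cells. It ranked 11 of the 88 long non-coding genes and 35 of 265 with protein-coding genes added. CCDC26 held 44 (41.9 per Mb, ranks 24 and 64), below the 47.8 per Mb of the whole downstream side. It also held 19 SA1 and 23 SA2 peaks of CHM13 cells and 4 RAD21, 2 SA1 and 2 SA2 peaks of RPE-1 cells. At the start of ENSG00000286034, a long non-coding RNA gene at 587.4 kb, RAD21, SA1 and SA2 of CHM13 cells and RAD21 of RPE-1 cells met in 1 site (chr8:128322367-128323383, 1017 bp).

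The upstream side, which holds PCAT1, CASC19, CASC8 and POU5F1B, was sparse but uneven. Of its 12 RAD21 peaks, 6 lay within CASC19 (38.7 per Mb, rank 26 of 88 and 72 of 265), between −571.5 and −510 kb. All 6 had an SA2 peak, 2 of them SA1 as well, and none had a peak of RPE-1 cells. CASC8 and POU5F1B, which overlap there, held the same single RAD21 peak, without SA (chr8:127400656-127401094, 439 bp). That peak overlapped an exon of CCAT2, whose start lay within 1 kb of it, whereas the starts of CASC8 and POU5F1B had no peak within 1 kb.

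The longest interval with no RAD21 peak of CHM13 cells lay upstream, at chr8:126877213-127163611 (286 kb). On the downstream side it was chr8:128330229-128502824 (173 kb), from within ENSG00000286034 into LINC00824. Neither held a peak of any of the 6 lists. In RPE-1 cells the longest intervals with no RAD21 peak were 857 kb upstream, ending at the first peak of MYC (chr8:126877160-127733914), and 609 kb downstream (chr8:128323035-128932169). Counted by overlap of at least 1 bp rather than by centre, 22 peaks of the other lists reached into the first of these and 77 into the second. Among them were CHM13 peaks of the shared sites that bound these intervals.

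Against the rest of chromosome 8 the window was dense in RAD21 of CHM13 cells. It held 40.3 RAD21 peaks per Mb (33.5 to 48.2) against 24.6, a ratio of 1.64 (1.36 to 1.97). The ratios of SA1 (1.35, 0.994 to 1.80, from 16.0 and 11.8 per Mb) and SA2 (1.29, 0.975 to 1.68, from 19 and 14.7 per Mb) had intervals that include 1. For RPE-1 cells the ratio was 0.932 for RAD21 (0.494 to 1.61), 0.749 for SA1 (0.321 to 1.49) and 0.888 for SA2 (0.286 to 2.10). The interval of RPE-1 RAD21 overlaps that of CHM13 RAD21, and the difference between them was not tested.

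Other tiles of 3 Mb on chromosome 8 give a scale for these values. Of 47 such tiles, 7 held more RAD21 peaks of CHM13 cells than the window, and they ranged from 1 to 56 per Mb with a median of 25.3. For SA1 10 tiles exceeded the window and for SA2 14. For RPE-1 cells 23 tiles exceeded it in RAD21, 27 in SA1 and 23 in SA2, so the window lay near the middle of the chromosome in that line.

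**Figure D4:**
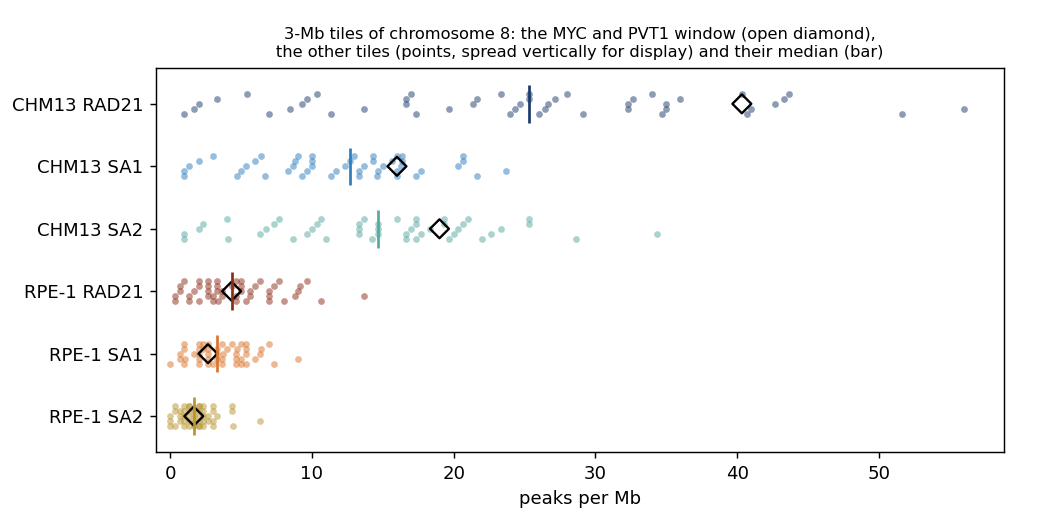
Peaks per Mb in the MYC and PVT1 window (open diamond) and in the 47 other tiles of 3 Mb of chromosome 8 (points, with their median as a bar) for each of the 6 lists. For CHM13 RAD21 the window lay at 40.3 against a median of 25.3, and for RPE-1 RAD21 it lay at the median of 4.33.

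RAD21 peaks of CHM13 cells stood a median of 9.53 kb apart in the window and 14.4 kb apart on the rest of the chromosome. Their median width was 773 bp in the window and 733 bp elsewhere on chromosome 8. Together they covered 3.67% of the window and 2.10% of the rest. SA1 peaks were 711.5 bp wide in the median against 626 bp, and SA2 peaks 725 bp against 616 bp. In RPE-1 cells the widths were 450 bp against 435 bp for RAD21, 438 bp against 400 bp for SA1 and 350 bp against 353.5 bp for SA2.

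After the peak at MYC, the next widest RAD21 peaks of CHM13 cells in the window were much narrower. They were 2485 bp near the end of PVT1 (chr8:128182831-128185315), 2460 bp (chr8:128683368-128685827) and 2251 bp (chr8:128881657-128883907) in introns of CCDC26, and 1752 bp at the PVT1 site that RPE-1 cells shared. All but the peak of 2460 bp, which had SA1 alone, overlapped both SA subunits.

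All 48 SA1 peaks and all 57 SA2 peaks of CHM13 cells overlapped a RAD21 peak, near the general share of 94.5% and 96.8% of the whole lists. On the rest of chromosome 8 the shares were 97.8% and 98.5%, and the differences of 2.21 points (−5.23 to 3.03) and 1.53 points (−4.79 to 2.16) include 0. SA1 peaks overlapped SA2 in 37 of 48 cases (77.1% against 87.9% on the rest of chromosome 8, a difference of −10.8 points with a Newcombe interval of −24.5 to −1.05, and 85.8% of the whole list). SA2 peaks overlapped SA1 in 38 of 57 cases (66.7%), where 73.8% of the whole list did.

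Many of the RAD21 peaks had no SA partner. Of the 121, 47 overlapped SA1 (38.8%, against 48.2% of the whole list) and 54 overlapped SA2 (44.6%, against 57.2%). The share with SA2 was 13.0 points below the rest of chromosome 8 (difference −13.0, −21.7 to −3.96), and that with SA1 differed by −7.24 points (−15.6 to 1.82). Counted by combination, 36 peaks had both SA subunits, 18 SA2 alone, 11 SA1 alone and 56 neither. The share with both, 29.8%, was 11.9 points below the 41.6% of the rest of the chromosome (difference −11.9, −19.5 to −3.06). The share with neither was 46.3% against 37.9% (difference 8.36, −0.423 to 17.4).

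The peaks without SA were spread unevenly. Upstream of MYC 1 of 12 RAD21 peaks had neither SA subunit. In PVT1 it was 17 of 33 (51.5%) and on the downstream side 37 of 74 (50.0%). PVT1 and the downstream side together exceeded the upstream side by 42.1 points (13.5 to 53.7), a comparison chosen after the values had been seen. The same parts held most of the RAD21 peaks.

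Peaks with both SA subunits were the widest class. RAD21 peaks of CHM13 cells with no SA peak were 609 bp wide in the median (298 to 1585 bp), those with SA1 alone 537 bp, those with SA2 alone 826 bp and those with both 1020 bp (514 to 6274 bp). On the rest of chromosome 8 the same classes had medians of 586.5, 595, 770 and 835 bp. A wider peak also has more bases on which to overlap another, and the part of width in this pattern was not tested.

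**Figure D5:**
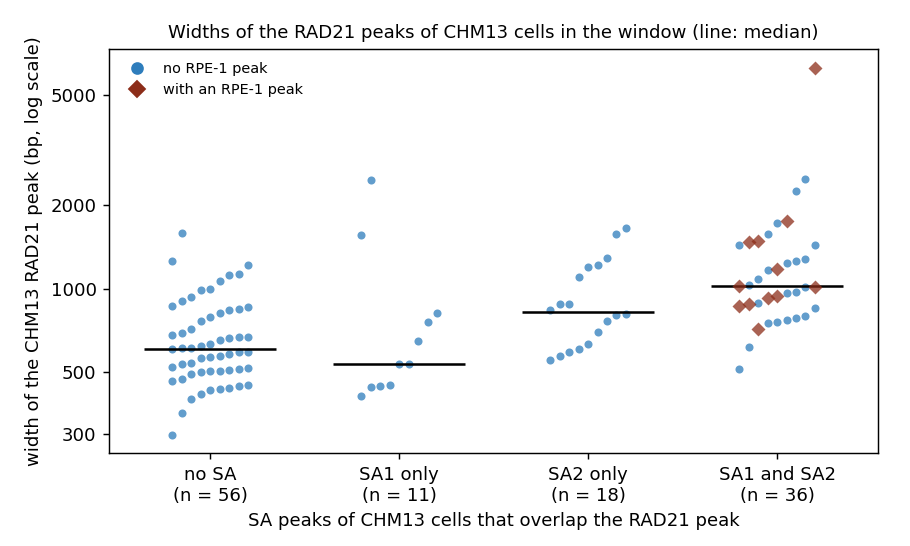
Width in bp (log scale) of each of the 121 RAD21 peaks of CHM13 cells in the window, by the SA peaks of CHM13 cells that overlap it, with the median of each class as a line and peaks that overlap any RPE-1 peak as red diamonds. All 12 peaks shared with RPE-1 cells had both SA1 and SA2, as did 94.3% of such peaks on the rest of chromosome 8, and the widest, at 6274 bp, is the peak at MYC.

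In RPE-1 cells the subunits could be paired only in small numbers. RAD21 overlapped SA1 at 8 of 13 peaks (56.2% of the whole list) and SA2 at 4 of 13 (37.6%). All 8 SA1 peaks overlapped RAD21 (78.7%), and 3 of 8 overlapped SA2 (50.2%). Of the 5 SA2 peaks, 4 overlapped RAD21 (88%) and 3 overlapped SA1 (84%). The percentages are those of the whole lists, and the Wilson interval of each of these 6 shares includes its percentage.

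Every peak of RPE-1 cells in the window lay on a peak of the same subunit in CHM13 cells, 13 of 13 for RAD21, 8 of 8 for SA1 and 5 of 5 for SA2. The whole lists gave nearly the same, 97.1%, 97.5% and 98.5%. In the other direction 11 of the 121 RAD21 peaks of CHM13 cells overlapped an RPE-1 RAD21 peak (9.09%, Wilson interval 5.15 to 15.5%), against 19.5% of the whole list and 17.8% of the rest of chromosome 8. The difference from the rest of the chromosome was −8.66 points (−12.8 to −2.09). For SA1 it was 8 of 48 (16.7%, against 27.2% of the whole list), a difference of −11.6 points (−19.9 to 1.45), and for SA2 5 of 57 (8.77%, against 14.2%), a difference of −3.55 points (−8.74 to 6.71). The RAD21 peaks of the window were thus shared less often than those elsewhere on chromosome 8, and for SA1 and SA2 the intervals include no difference. Counted against a peak of any RPE-1 subunit, CHM13 SA1 peaks of the window were shared in 27.1% of cases against 42.1% on the rest of chromosome 8, a difference of −15.1 points (−25.8 to −0.956) that excludes 0. For CHM13 SA2 it was 24.6% against 34.2%, a difference of −9.68 points (−19.2 to 3.02) that includes 0. The whole-list shares by this measure were not computed.

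The 12 sites with any RPE-1 peak were few enough to name. Upstream there were 3, all within PCAT1, at −925.3 kb (chr8:126809633-126810538), −910.9 kb (chr8:126824134-126825014) and −858.7 kb (chr8:126876318-126877212). One was MYC, 1 lay in PVT1 and 7 lay downstream. Those 7 were at 587.4 kb at the start of ENSG00000286034, at 1196.8 kb (chr8:128931631-128932810), 1299.7 kb (chr8:129034486-129035726), 1800.3 kb (chr8:129534952-129536441) and 1946.8 kb (chr8:129681760-129682701) in CCDC26, at 1962.3 kb on an exon of ENSG00000285108 (chr8:129697001-129698478), and at 1991 kb between genes (chr8:129726008-129726934).

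Peaks in all 6 lists met at 3 of these 12 sites, on an exon of PCAT1 at −858.7 kb (895 bp), in an intron of CCDC26 at 1800.3 kb (1490 bp) and between genes at 1991 kb (927 bp). The share of such sites elsewhere on chromosome 8 was not computed. The site at 1962.3 kb was the one site of RPE-1 cells with SA2 but no RAD21. In RPE-1 cells the 12 sites divided into 4 with RAD21 and SA1, 3 with RAD21 alone, 3 with all subunits, 1 with RAD21 and SA2, and 1 with SA2 alone.

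All 12 sites carried both SA1 and SA2 in CHM13 cells. On the rest of chromosome 8 this held for 694 of 736 RAD21 peaks of CHM13 cells with an RPE-1 peak (94.3%), so the count at the locus was near the general share. Of the 109 sites found in CHM13 cells alone, 24 carried both (22%, against 27.5% on the rest of the chromosome) and 56 carried RAD21 alone. The RAD21 peaks of CHM13 cells at the shared sites were 1020 bp wide in the median, and those at the other sites 752 bp. The rest of the chromosome had the same order, 831.5 and 685 bp. Among the peaks with both SA subunits, the 24 without an RPE-1 peak had a median of 1025 bp, nearly that of the shared ones. Over the number of lists, 56 sites were in 1 list, 29 in 2, 24 in 3, 4 in 4, 5 in 5 and 3 in all 6. The same counts were not made for the rest of chromosome 8, so none of them is particular to the locus.

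The DNA under the peaks was searched on both strands for the core of the CTCF consensus motif, which is 12 bases long. An exact match lay in the central 500 bp of 5 of 121 RAD21 peaks of CHM13 cells (4.13%, against 6.61% on the rest of chromosome 8) and in 0.153% of all tiles of 500 bp on the chromosome. The difference from the rest of the chromosome was −2.48 points (−4.99 to 2.76), which includes 0. It lay in 5 of 48 SA1 peaks (10.4%, against 11.6% on the rest of the chromosome, difference −1.17, −7.27 to 10.7) and 5 of 57 SA2 peaks of CHM13 cells (8.77%, against 9.16%, difference −0.389, −5.53 to 9.85). In RPE-1 cells it lay in 2 of 13 RAD21 peaks (15.4%, against 19.6%) and 2 of 8 SA1 peaks (25.0%, against 18.2%). None of the 5 RPE-1 SA2 peaks had one, which allows a share of up to 43.4% (Wilson). On the rest of the chromosome 19.2% of RPE-1 SA2 peaks had one, and the difference (−19.2 points, −24.3 to 24.5) includes 0.

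With 1 mismatch allowed, 14 of the 121 RAD21 peaks of CHM13 cells held the core (11.6%), against 24.2% on the rest of chromosome 8, 2.36% of all its tiles of 500 bp and 2.23% of those in the window. The difference from the rest of the chromosome was −12.7 points (−17.5 to −5.62). SA1 peaks held it in 25.0% against 42.0% (difference −17.0, −27.4 to −3.05) and SA2 peaks in 21.1% against 34.0% (difference −13.0, −21.8 to −0.556). For RPE-1 RAD21 it was 7 of 13 (53.8%) against 59.9%. With 1 mismatch allowed, RAD21, SA1 and SA2 peaks of CHM13 cells in the window thus held the core less often than those elsewhere on the chromosome, a difference that the exact matches did not show. A match describes the letters and is no evidence of a bound protein.

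With 1 mismatch allowed the core lay in 8 of the 12 shared sites and in 12 of the 109 others, taken over their whole width. The broad site at MYC held an exact core on the plus strand, as did the site at −910.9 kb. At 4 of the 12 sites none was found, at −858.7, 1196.8, 1299.7 and 1962.3 kb. Shared sites are wider, so more letters were searched in them. In the central 500 bp of the RAD21 peak alone the core lay in 5 of 12 (41.7%, Wilson interval 19.3 to 68.0%) and 9 of 109 (8.26%, 4.40 to 15.0%). The rest of chromosome 8 had the same order, with 55.8% and 15.8%. Window peaks with both SA subunits and no RPE-1 peak held it in 5 of 24 cases (20.8%, 9.24 to 40.5%), an interval that overlaps that of the shared peaks. Exact matches were in 1 of the 12 shared peaks and in 3 of those 24. RAD21 peaks with both SA subunits held the core with up to 1 mismatch in 10 of 36 cases (27.8%, against 42.5% on the rest of the chromosome) and those with neither in 3 of 56 (5.36%, against 10.2%).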

How the data were processed

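The authors deposited 20 ChIP-seq libraries, 5 of them input chromatin, with 3 replicates per subunit in CHM13 cells and 2 in RPE-1 cells. A further RPE-1 replicate that gave few reads had been discarded by the authors. Per the labels, the submitters' processing notes name bcl2fastq 2.20, BWA, SAMtools, MACS2 and the build hg38. The methods describe alignment with bwa mem to CHM13 v1.0, removal of secondary and supplementary alignments, peak calling in each replicate, merging with the reduce function of GenomicRanges and removal of loci seen in fewer than 2 replicates, so a peak has the width of merged replicates and RPE-1 peaks had to be in both. The alignment to hg38 is not given in the sources used here. The 6 deposited hg38 lists give the start and end of each peak in bp. Their score column is 0 throughout, so peaks could not be ranked by height, and they hold no library depth. The 6 deposited lists on CHM13 v1.0 were not used. On 23 chromosomes 0 peaks ran past the end of hg38.

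Analysis used Python 3.11.15, numpy 2.4.6, scipy 1.17.1 and matplotlib 3.10.9, with genes of GENCODE 44. Starts were counted from 1. A peak belonged to a region by its centre, densities were per Mb without N, and an overlap was at least 1 bp. Densities carry exact Poisson intervals, their ratios conditional exact intervals, shares Wilson intervals and differences of shares Newcombe intervals, all at 95%, and the code was tested on simulated data. No p-value was computed, since replicates are pooled. Genes named are MYC, PVT1, protein-coding genes of the window and genes whose start lies within 1 kb of a peak. Sites named are those at MYC or between MYC and PVT1, those of PVT1 with an RPE-1 peak, those in all 6 lists, the 5 widest RAD21 peaks of CHM13 cells and the longest intervals without them. The other sites with an RPE-1 peak, the genes PCAT1, CASC19, CASC8, LINC00824, CCDC26, MIR1205, MIR1206, MIR1208 and ENSG00000285108, the site at −9.5 kb and the peak of 1585 bp at the PVT1 start were named after their values had been seen. Members and lists were chosen with earlier results of these data known. The alternatives tried were any overlap with the window, a window of 1.5 Mb, peaks of at least 500 bp, peaks within 1 kb joined, covered bases, other backgrounds, stricter and looser overlap, 1 mismatch, and whole peaks.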

Additional observations from a re-analysis of the deposited data

How the results depend on the processing

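Of 133 alternative values for 42 results, 109 kept their direction and their side of an interval, or stayed within the interval. With peaks joined across 1 kb the SA1 density ratio of CHM13 cells rose to 1.38 and its interval excluded 1. With peaks of at least 500 bp, the SA2 ratios of CHM13 cells also excluded 1 (1.49 for the window, 2.47 for PVT1), while those of SA1 no longer did (2.57 downstream over upstream, 2.21 for PVT1), nor did PVT1 taken as 300 kb for SA1 (1.54). The same width limit turned the RPE-1 RAD21 ratios to 1.36 (window), 0.643 (downstream over upstream) and 1.66 (PVT1) and the RPE-1 SA1 ratio to 1.52, with fewer peaks counted, and raised CHM13 SA1 with SA2 to 91.7%. An overlap of at least 50% of both peaks lowered sharing to 2.48% (CHM13 RAD21), 1.75% (CHM13 SA2), 23.1% (RPE-1 RAD21) and 20% (RPE-1 SA2), and CHM13 SA1 and SA2 with RAD21 to 79.2% and 82.5%. The shares elsewhere under this stricter rule were not computed, so these values do not describe the locus in particular. On the rest of chromosome 8, too, RPE-1 peaks were narrower than CHM13 peaks (medians 435 against 733 bp for RAD21, 353.5 against 616 bp for SA2). Counting any subunit raised CHM13 SA2 to 24.6% (34.2% on the rest of chromosome 8). With 1 mismatch the CTCF core was in 11.6, 25.0 and 21.1% (CHM13 RAD21, SA1, SA2) and 53.8, 62.5 and 60.0% (RPE-1) of peaks. For RPE-1 SA1 and SA2 the rest of chromosome 8 had 60.6% and 65.0%. No paired analysis was possible because the lists pool the replicates, and leaving out single replicates could not be run for that reason. The RPE-1 values rest on 13, 8 and 5 peaks, and the part of sequencing depth in these counts was not tested.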

Other observations

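PVT1 has 132 distinct annotated transcript starts, of which 67 lay in RAD21 peaks of CHM13 cells, 46 of them in the single peak of 1585 bp over the start of the gene. SA2 peaks of CHM13 cells covered 11 of the 132, and SA1 peaks of CHM13 cells and the 3 lists of RPE-1 cells covered 0. At MYC, SA1 of CHM13 cells covered all 14 starts, with a single peak of 4580 bp. Starts lie close together in both genes, so these counts are not of independent positions. No test was made of this difference.

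PCAT1 begins outside the window, at −1179 kb from the MYC start. An RPE-1 RAD21 peak of 722 bp covered that start (chr8:126556281-126557002). The nearest RAD21 peak of CHM13 cells was 253408 bp away, and no SA1 or SA2 peak of either line lay within 142583 bp. Over the genome 97.1% of RPE-1 RAD21 peaks overlapped a CHM13 RAD21 peak, and this one did not.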
